A study of Macaca mulatta with 7 samples.

Results

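BDNF, NTF3, GDNF, NTRK2, NTRK3, NGFR, GFRA1 and RET, which encode neurotrophic factors and their receptors, were followed across the cell classes of rhesus monkey (Macaca mulatta) spinal cord. They were taken by gene symbol, and all 8 were found among the 29011 gene names of the count tables. The data were single-nucleus RNA-seq, in which the RNA molecules of each nucleus are counted by their unique molecular identifiers (UMIs), from 7 libraries with 1 library in each group. Untreated cord at an age of 5 years gave a cervical, a thoracic and a lumbar library. Lumbar cord from animals with a complete thoracic injury gave the other 4, at 7 and 14 days post injury (dpi, age 7 years), 30 dpi (age 6 years) and 6 months post injury (mpi, age 6 years). By the study's account all animals were adult females, 1 animal per group was sequenced, and the 3 intact segments came from 1 animal. Time point, animal, age and library therefore cannot be told apart, no test between groups was possible, and all intervals below are 95% intervals of counting error only. Single-library values are given in 1 order, which is cervical, thoracic and lumbar for intact cord and 7, 14 and 30 dpi and 6 mpi for injured cord.

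BDNF and neurotrophin-3 (NTF3) are secreted neurotrophins that act mainly through the receptor tyrosine kinases TrkB (NTRK2) and TrkC (NTRK3). The p75 receptor (NGFR) binds all neurotrophins with lower affinity. GDNF binds the membrane-anchored co-receptor GFRA1, and the pair signals through the receptor tyrosine kinase RET. In spinal cord these factors are known for the survival of motor and sensory neurons and for their actions on axon growth and on synapses.

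The genes lie on 7 chromosomes of the Mmul_10 assembly. BDNF (ENSMMUG00000008634) spans chr14:37727375-37797626 on the plus strand, NTF3 (ENSMMUG00000014646) chr11:5563736-5627915 on the plus strand, and GDNF (ENSMMUG00000018963) chr6:37664534-37692642 on the minus strand. NTRK2 (ENSMMUG00000023117) spans chr15:99990494-100359555 on the plus strand, NTRK3 (ENSMMUG00000001386) chr7:66645145-67034967 on the minus strand, and NGFR (ENSMMUG00000014603) chr16:47276730-47296964 on the minus strand. GFRA1 (ENSMMUG00000020080) spans chr9:116549359-116771215 on the minus strand and RET (ENSMMUG00000015400) chr9:43802318-43855382 on the plus strand. The gene spans ran from 20.2 kb for NGFR to 389.8 kb for NTRK3. RNA of nuclei holds unspliced transcripts. Levels are therefore compared below between cell classes and libraries for a given gene, and genes are not ranked by level. The limits in CPM used below to consider or name genes take no account of gene span. NTRK2 has 8 annotated transcripts and NTRK3 has 10, and the counts do not tell receptor forms with and without a kinase domain apart. GDNF overlaps 1 annotated gene on the opposite strand, and whether the counting used strand is not given in the sources used here.

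After filtering, 63730 nuclei remained, 5637 to 11002 per library, with a median of 3191 to 7355 UMIs per nucleus and the lowest of both at 6 mpi. Of 68841 distinct barcodes, 489 occurred in more than 1 library, at most 36 in any pair of libraries. Clusters were named by marker genes, and 9894 nuclei were neuron-like, 3764 astrocyte-like, 4013 oligodendrocyte precursor cell (OPC)-like, 21989 oligodendrocyte-like and 20496 microglia/macrophage-like. Levels are given as CPM, the UMIs of a gene divided by all UMIs of the class in that library and scaled to 1e6. All measured markers were highest in their own class except the neuron marker MAP2, whose mean was 1530 CPM in neuron-like and 1925 CPM in OPC-like nuclei.

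The makeup of some classes differed after injury. The shares that each cluster took of a class overlapped by 94.5% between intact and injured libraries for neuron-like and 97.5% for OPC-like nuclei. The overlap was 80.7% for astrocyte-like nuclei, which lay in clusters 10 and 14, and 30.2% for oligodendrocyte-like nuclei, where cluster 3 led in intact and cluster 1 in injured libraries. It was 2.80% for microglia/macrophage-like nuclei, where cluster 0 held 89.3% of the intact and 0.428% of the injured nuclei. Each injured library had another leading cluster in this class. Cluster 4 held 2879 of 3468 nuclei at 7 dpi and cluster 2 held 4039 of 4612 at 14 dpi. Cluster 11 held 2005 of 3856 at 30 dpi and cluster 15 held 1136 of 2306 at 6 mpi. Libraries were not aligned before clustering, so injury and library cannot be told apart in these overlaps. Astrocyte-like nuclei numbered 867 to 1361 in the intact libraries and 96, 240, 143 and 109 in the injured ones.

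Each gene had its own distribution over the classes. BDNF and NTF3 were found mainly in neuron-like nuclei, and GDNF at low levels in neuron-like, OPC-like and oligodendrocyte-like nuclei. NTRK2 was highest in astrocyte-like nuclei and both NTRK3 and GFRA1 in OPC-like nuclei, in every library. RET was found in neuron-like and astrocyte-like nuclei, and NGFR was barely detected.

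**Figure D1:**
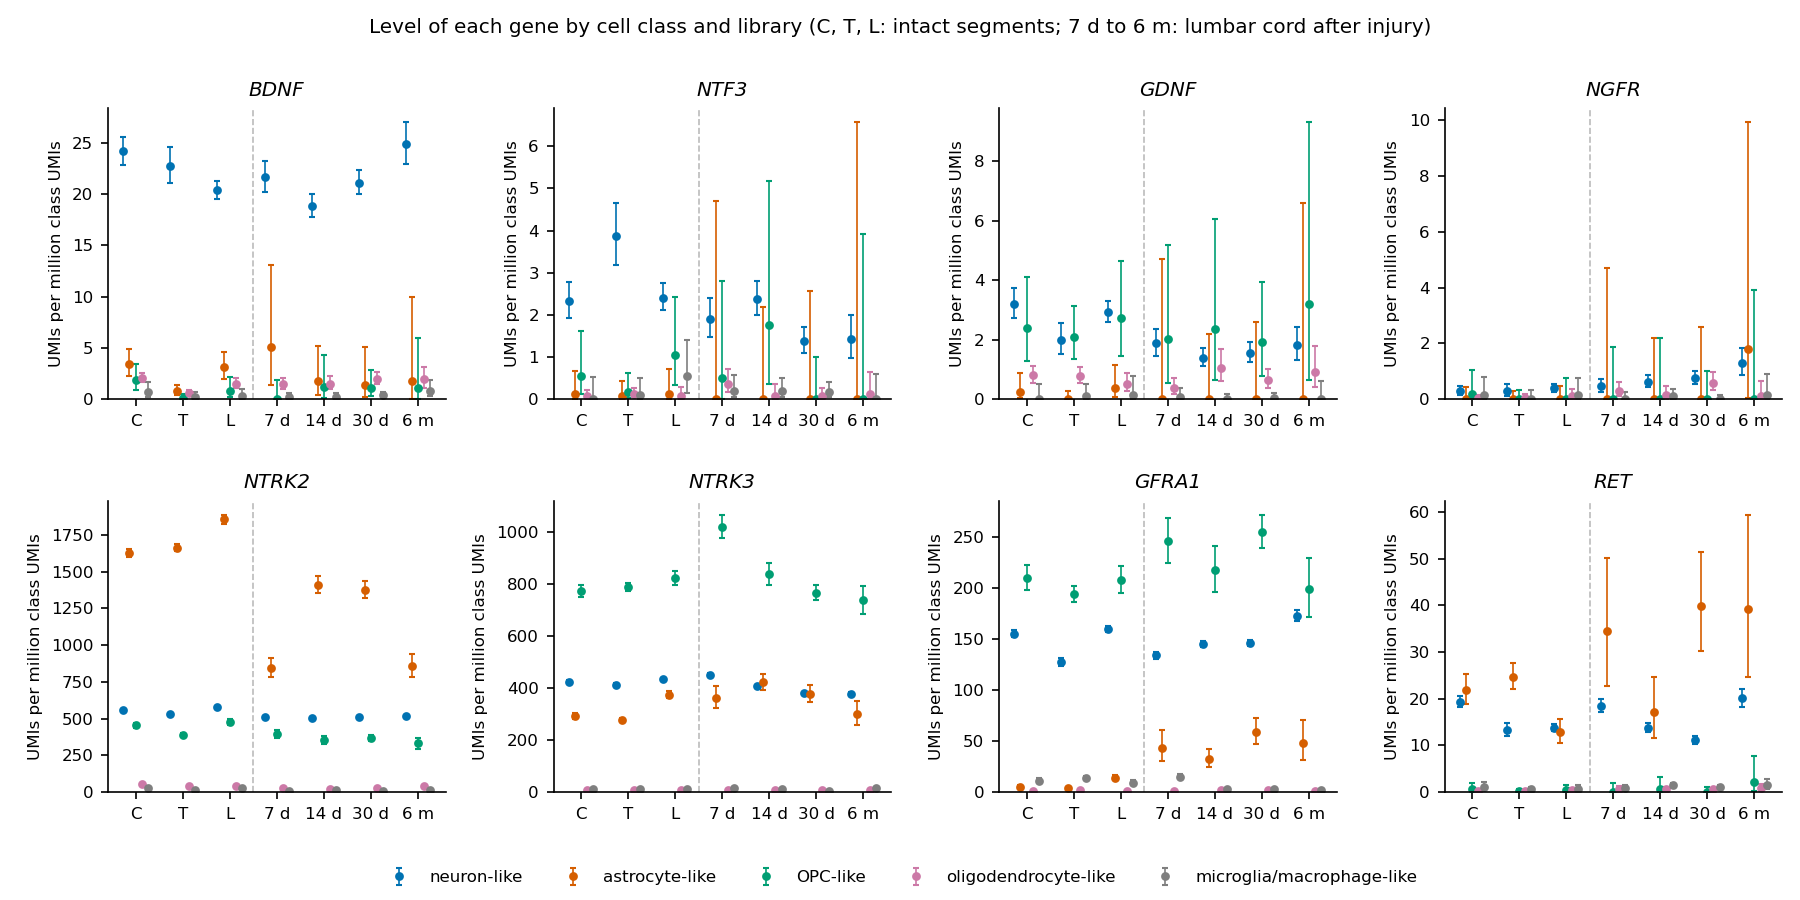
CPM of each of the 8 genes (y axis, linear, a separate scale per gene) in 5 cell classes across the 7 libraries (x axis; C, T and L are intact cervical, thoracic and lumbar cord, and 7 d to 6 m are lumbar cord after injury, right of the dashed line). Points are single libraries and bars are exact Poisson 95% intervals; astrocyte-like nuclei lead for NTRK2 (844 to 1856 CPM) and OPC-like nuclei for NTRK3 (737 to 1021 CPM).

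Among the ligands, BDNF was a neuron-like transcript, with 89.0% to 96.7% of its UMIs per library in that class. Its level there was 24.2, 22.8 and 20.4 CPM in intact and 21.6, 18.8, 21.1 and 24.9 CPM in injured libraries. The 2 sets of libraries overlapped, and the ratio to intact lumbar cord was lowest at 14 dpi (0.925, interval 0.859 to 0.996) and highest at 6 mpi (1.22, 1.11 to 1.34). In astrocyte-like nuclei BDNF gave 1 to 28 UMIs per library.

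NTF3 gave 117, 113 and 226 UMIs in intact neuron-like nuclei, or 2.32, 3.87 and 2.41 CPM. The injured libraries gave 71, 146, 82 and 33 UMIs, or 1.90, 2.38, 1.37 and 1.42 CPM. The 7 dpi, 30 dpi and 6 mpi libraries lay below the intact range and the 14 dpi library within it. Outside the neuron-like class, 11 UMIs were seen in 319 ependymal-like nuclei of intact lumbar cord.

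GDNF gave 3.21, 1.99 and 2.94 CPM in intact neuron-like nuclei, from 162, 58 and 276 UMIs. After injury it gave 1.87, 1.38, 1.55 and 1.80 CPM there, from 70, 85, 93 and 42 UMIs. All 4 injured libraries lay below all 3 intact libraries, although the thoracic value was close to the 7 dpi value. The ratios to intact lumbar cord were, in order of time, 0.636 (0.482 to 0.829), 0.470 (0.364 to 0.602), 0.528 (0.413 to 0.671) and 0.613 (0.432 to 0.851). GDNF did not reach the mean of 5 CPM required for the call described below. In OPC-like nuclei, from 3 to 24 UMIs per library, it gave 2.39, 2.09 and 2.71 CPM in intact and 2.02, 2.36, 1.90 and 3.19 CPM in injured libraries, with overlapping ranges. Oligodendrocyte-like nuclei held 4.25% to 27.5% of the GDNF UMIs of a library, at 0.798, 0.764 and 0.514 CPM in intact and 0.364, 1.04, 0.626 and 0.907 CPM in injured libraries, from 8 to 33 UMIs. This was 17.5% to 74.8% of the neuron-like level, where the highest of the 6 neuron markers stood at 4.88% to 8.59%.

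Among the receptors, NTRK2 had its highest level in astrocyte-like nuclei. It gave 1626, 1662 and 1856 CPM in intact libraries and 844, 1409, 1377 and 856 CPM in injured ones. All 4 injured libraries lay below the intact range, 7 dpi and 6 mpi the furthest. The ratios to intact lumbar cord were 0.455 (0.420 to 0.491), 0.759 (0.727 to 0.793), 0.742 (0.707 to 0.778) and 0.461 (0.420 to 0.505). With each nucleus thinned at random to 1000 UMIs, 72.8% to 77.1% of intact astrocyte-like nuclei had an NTRK2 UMI, against 43.8%, 67.5%, 69.2% and 52.3% after injury. Unthinned, the shares were 98.0% to 98.3% in intact and 83.3% to 97.5% in injured libraries. Microglia/macrophage-like nuclei, given for comparison, had 0.622% to 3.02% thinned and 3.08% to 9.59% unthinned. How much of this is background was not tested. Median depths were 3879 to 9343 UMIs for astrocyte-like and 2388 to 5812 for microglia/macrophage-like nuclei, and no nucleus was too shallow to be thinned.

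The astrocyte-like nuclei came from different sub-clusters before and after injury. Sub-clusters 5 and 7 together held 1.15%, 1.62% and 1.90% of them in the intact libraries and 91.7%, 90.0%, 90.2% and 67.0% in the injured ones. Sub-cluster 5 was led by SERPINA3, an acute-phase protease inhibitor, CHI3L1, a secreted glycoprotein, CP, MT2A and FABP5. Sub-cluster 7 was led by AQP6, LCN9, GNA14, AKR1B1 and RIMS1. In sub-cluster 5, NTRK2 gave 1345 CPM (1233 to 1465) in 48 nuclei of intact libraries and 1557 CPM (1502 to 1614) in 245 nuclei of injured libraries. By library it gave 1149, 1613 and 1043 CPM in intact cord, from 10, 22 and 16 nuclei. The injured libraries gave 1095, 1914, 1586 and 1254 CPM, from 57, 79, 88 and 21 nuclei. The ranges overlapped, and the 7 dpi and 6 mpi values were below the pooled intact value. In sub-cluster 7 it gave 1014 CPM (970 to 1061) in 261 nuclei of injured libraries, where the intact libraries had 2 nuclei. In all other sub-clusters it gave 1709 CPM (1694 to 1724) in 3126 intact nuclei and 891 CPM (819 to 967) in 82 injured nuclei.

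NTRK2 also differed between white matter and gray matter astrocyte-like nuclei, named from marker sets that did not include it. White matter astrocyte-like nuclei gave 2017, 1811 and 2342 CPM in intact and 1102, 1862, 1611 and 1284 CPM in injured libraries. Gray matter astrocyte-like nuclei gave 1206, 1419 and 1524 CPM in intact and 598, 1157, 1035 and 766 CPM in injured libraries. The white matter level was the higher one in all 7 libraries. NTRK3 had the opposite order in intact cord, with 222, 243 and 308 CPM in white matter and 396, 426 and 416 CPM in gray matter astrocyte-like nuclei. After injury it gave 271, 365, 352 and 361 CPM in white matter and 525, 452, 451 and 312 CPM in gray matter astrocyte-like nuclei, with the gray matter value again the higher one except at 6 mpi, where the intervals overlapped (266 to 478 and 257 to 375 CPM, from 48 and 114 UMIs).

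In neuron-like nuclei NTRK2 gave 556, 529 and 575 CPM in intact and 509, 505, 511 and 517 CPM in injured libraries. The injured libraries all lay below the intact range, with ratios to intact lumbar cord of 0.878 to 0.898. In OPC-like nuclei the level was 454, 390 and 475 CPM in intact and 393, 354, 370 and 332 CPM in injured libraries, with 3 of the 4 below the intact range. In oligodendrocyte-like nuclei it was 54.5, 39.5 and 43.2 CPM in intact and 25.7, 19.1, 27.0 and 39.4 CPM in injured libraries. All 4 were below the intact range, the 6 mpi library by less than its counting interval (35.3 to 43.7 CPM). In ependymal-like nuclei, which line the central canal, NTRK2 gave 173, 204 and 234 CPM in 64, 109 and 319 intact nuclei. The injured libraries had fewer than 50 ependymal-like nuclei each and gave 15, 20, 21 and 3 NTRK2 UMIs in 32, 48, 46 and 6 nuclei.

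Microglia/macrophage-like nuclei had 25.4, 15.9 and 26.5 CPM of NTRK2 in intact and 8.76, 13.4, 8.81 and 13 CPM in injured libraries. These levels were 0.640% to 1.57% of the astrocyte-like level of the library. The 6 astrocyte markers, measured the same way, had a median of 1.12% to 5.34% with single markers from 0.187% to 121.8%. That median was above the NTRK2 share in each of the 7 libraries. Against neuron-like nuclei NTRK2 stood at 4.58%, 3.01% and 4.60% in intact libraries, above the median of the 6 neuron markers (2.52%, 1.07% and 2.89%). In injured libraries it stood at 1.72%, 2.66%, 1.72% and 2.51%, below their median (2.33%, 3.41%, 2.14% and 4.55%). The part of free RNA in the NTRK2 level of this class was not tested.

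NTRK3 was highest in OPC-like nuclei in every library. It gave 773, 788 and 823 CPM in intact libraries and 1021, 838, 766 and 737 CPM in injured ones. The 7 and 14 dpi libraries lay above the intact range and the 30 dpi and 6 mpi libraries below it. The ratios to intact lumbar cord were 1.24 (1.17 to 1.31), 1.02 (0.957 to 1.08), 0.930 (0.886 to 0.977) and 0.895 (0.824 to 0.970). Neuron-like nuclei gave 425, 412 and 435 CPM in intact and 449, 408, 381 and 378 CPM in injured libraries. Astrocyte-like nuclei gave 293, 277 and 373 CPM in intact and 362, 423, 378 and 302 CPM in injured libraries. In neuron-like nuclei the 7 dpi library lay above and the other 3 below the intact range, and in astrocyte-like nuclei the 14 and 30 dpi libraries lay above it and the other two within it.

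GFRA1 was also highest in OPC-like nuclei, with 210, 194 and 208 CPM in intact and 245, 218, 254 and 199 CPM in injured libraries. Neuron-like nuclei gave 155, 127 and 160 CPM in intact and 134, 145, 146 and 172 CPM in injured libraries. The first 3 injured libraries were above the intact range in OPC-like nuclei, and the ranges overlapped in neuron-like nuclei. At 14 dpi a single neuron-like nucleus held 535 of the 8888 neuronal GFRA1 UMIs.

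In astrocyte-like nuclei GFRA1 was low in intact cord and higher in every injured library. It gave 5.22, 3.75 and 13.9 CPM in intact libraries, from 43, 49 and 108 UMIs. The injured libraries gave 43.3, 32.6, 58.6 and 48.2 CPM, from 34, 55, 84 and 27 UMIs. All 4 lay above the 3 intact libraries, and the groups did not overlap. The ratios to intact lumbar cord were 3.12 (2.05 to 4.62), 2.34 (1.66 to 3.27), 4.22 (3.13 to 5.66) and 3.46 (2.18 to 5.32). The log2(CPM + 1) differences were 1.17 to 2.0 from intact lumbar cord and 1.96 to 2.79 when all 3 intact libraries were averaged as the reference. The UMIs came from 18, 34, 38 and 14 nuclei, with at most 18 in one nucleus. Without removal of nuclei by doublet score, intact lumbar cord gave 25.0 CPM, the injured libraries 44.8, 31.2, 51.0 and 41.1 CPM, and the 14 dpi library was then less than 1.5-fold above intact lumbar cord.

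The level of GFRA1 in astrocyte-like nuclei was also set against that in OPC-like nuclei of the same library, beside OPC markers. These were not all absent from astrocyte-like nuclei, where LHFPL3 averaged 583 CPM against 6644 CPM in OPC-like nuclei. In injured libraries GFRA1 stood at 17.7%, 15%, 23.0% and 24.2% of the OPC-like level. The 5 OPC markers stood at a median of 0.982%, 4.49%, 3.54% and 1.94% and at most at 11.8%, 11.6%, 13.2% and 18.1%. Against neuron-like nuclei the GFRA1 share was 32.4%, 22.5%, 40.2% and 27.9%, and the highest of the 6 neuron markers stood at 14.0%, 9.18%, 18% and 8.08%. GFRA1 was above all markers of each class, taken alone, in the 4 injured libraries. It is high in both classes, and the share that free RNA of both together could give was not computed. In intact lumbar cord, with 6.70% of the OPC-like level, it lay within the range of the OPC markers. The part of free RNA in the GFRA1 level of astrocyte-like nuclei was not tested.

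By sub-cluster of astrocyte-like nuclei, GFRA1 in sub-cluster 5 gave 18 UMIs in 48 nuclei of intact libraries, 16 of them in one nucleus, and 84 UMIs in 245 nuclei of injured libraries. This is 45.6 CPM (27.0 to 72.1) and 43.7 CPM (34.9 to 54.2), the intact value resting on that one nucleus. In sub-cluster 7 the injured libraries gave 43.4 CPM (34.6 to 53.8). In all other sub-clusters GFRA1 gave 6.35 CPM (5.46 to 7.34) in 3126 intact nuclei and 51.9 CPM (35.7 to 72.9) in 82 injured nuclei. The injured libraries thus had a like level in all 3 sets. White matter astrocyte-like nuclei gave 0.468, 1.82 and 9.51 CPM in intact and 55.5, 26.4, 54.1 and 30.0 CPM in injured libraries, the last from 4 UMIs in 30 nuclei. Gray matter astrocyte-like nuclei gave 9.34, 7.54 and 17.2 CPM in intact and 30.7, 30.1, 75.9 and 54.7 CPM in injured libraries, from 8, 31, 33 and 20 UMIs. In both kinds every injured library was above every intact one.

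**Figure D2:**
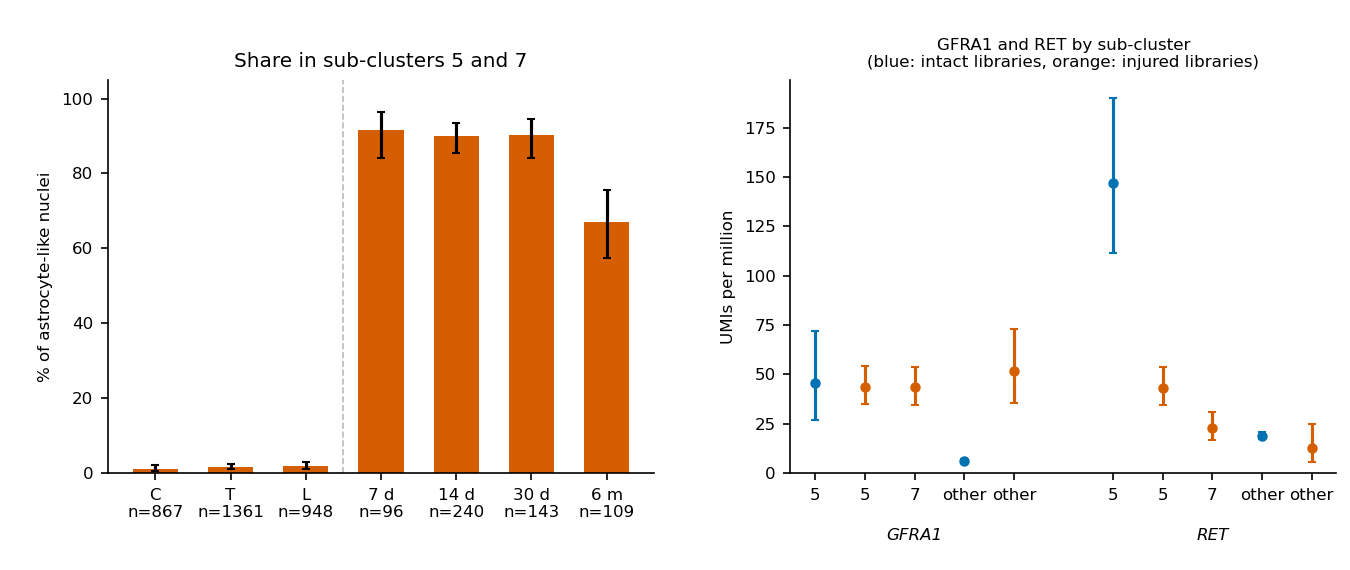
Left, percent of astrocyte-like nuclei in sub-clusters 5 and 7 per library, with exact Clopper-Pearson 95% intervals and the number of astrocyte-like nuclei under each bar; the share is 1.15% to 1.90% in intact (C, T, L) and 67.0% to 91.7% in injured libraries (7 d to 6 m). Right, CPM of GFRA1 and RET with exact Poisson 95% intervals in sub-cluster 5, sub-cluster 7 and all other sub-clusters, pooled over intact (blue) or injured (orange) libraries; sub-cluster 7 in intact libraries (2 nuclei) is not drawn.

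RET showed a different pattern in astrocyte-like nuclei. It gave 21.8, 24.7 and 12.9 CPM in intact and 34.4, 17.2, 39.8 and 39.2 CPM in injured libraries. The 7 dpi, 30 dpi and 6 mpi libraries lay above the intact range and the 14 dpi library within it. In intact cord RET was found mainly in white matter astrocyte-like nuclei, at 38.3, 31.5 and 27.9 CPM, against 3.92, 2.10 and 2.24 CPM in gray matter astrocyte-like nuclei. After injury the gray matter values were 23.0, 15.6, 25.3 and 38.3 CPM, from 6, 16, 11 and 14 UMIs, all above the intact range. The white matter values after injury were 48.6, 21.4, 46.4 and 60.1 CPM, from 21, 13, 42 and 8 UMIs, on both sides of the intact range. In sub-cluster 5 RET was lower in injured libraries, with 147 CPM (112 to 190) in the 48 intact and 43.2 CPM (34.4 to 53.6) in the 245 injured nuclei. It gave 23.0 CPM (16.7 to 30.9) in injured nuclei of sub-cluster 7. In all other sub-clusters it gave 19.0 CPM (17.5 to 20.7) in intact and 12.6 CPM (5.44 to 24.8) in injured nuclei.

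The 2 parts of the GDNF receptor were also counted in the same nuclei. Of 2261 white matter astrocyte-like nuclei 404 had a RET UMI, 68 a GFRA1 UMI and 17 both, a share of 0.752% (0.439% to 1.20%, exact Clopper-Pearson interval) at a median depth of 7402 UMIs. In OPC-like nuclei, at a median depth of 6524 UMIs, 2464 of 4013 had a GFRA1 UMI, 11 a RET UMI and 6 both. In cholinergic neuron-like nuclei 89 of 90 had both. Their median depth was 114326 UMIs, so these shares are not set against each other. A joint share is bounded by how few nuclei had a UMI of the rarer gene, and whether the 2 genes occurred together more or less often than apart was not tested.

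RET was highest in cholinergic neuron-like nuclei, the group to which the motor neurons of the cord belong. Each library had 6 to 25 of them, and RET gave 454, 122 and 333 UMIs in the 18, 6 and 25 intact nuclei and 185, 336, 188 and 220 UMIs in the 13, 13, 7 and 8 injured nuclei. All 90 nuclei had a RET UMI. The level pooled over libraries was 158 CPM (149 to 167) in sub-cluster 32 and 189 CPM (174 to 206) in sub-cluster 34, which make up this group. Excitatory neuron-like nuclei had 3.63 to 12.5 CPM and inhibitory neuron-like nuclei 10.1 to 17.2 CPM over the 7 libraries. The class level of RET in neuron-like nuclei was 19.3, 13.3 and 13.7 CPM in intact and 18.5, 13.8, 11.2 and 20.1 CPM in injured libraries, with overlapping ranges.

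GFRA1 was also uneven among neuron-like nuclei. Excitatory neuron-like nuclei gave 352, 315 and 369 CPM in intact and 293, 292, 322 and 347 CPM in injured libraries. Inhibitory neuron-like nuclei gave 80.2, 62.4 and 104.6 CPM in intact and 98.7, 87.4, 90.6 and 102 CPM in injured libraries. The excitatory level was the higher one in all 7 libraries. Here and for RET these are the named sub-clusters alone, with 2295 excitatory and 4872 inhibitory neuron-like nuclei. Sub-clusters 2, 5, 13, 15, 19 and 25 scored best as excitatory and 3, 10 and 31 as inhibitory. They stayed unnamed and are in neither group. In cholinergic neuron-like nuclei GFRA1 gave 996, 232 and 615 UMIs in intact and 342, 1035, 473 and 462 UMIs in injured libraries, and single nuclei held 535, 180 and 250 of the last 3 counts. The points of these libraries in the plot of receptor levels by sub-type therefore rest to a large part on 1 nucleus each, and no difference was read from them.

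**Figure D3:**
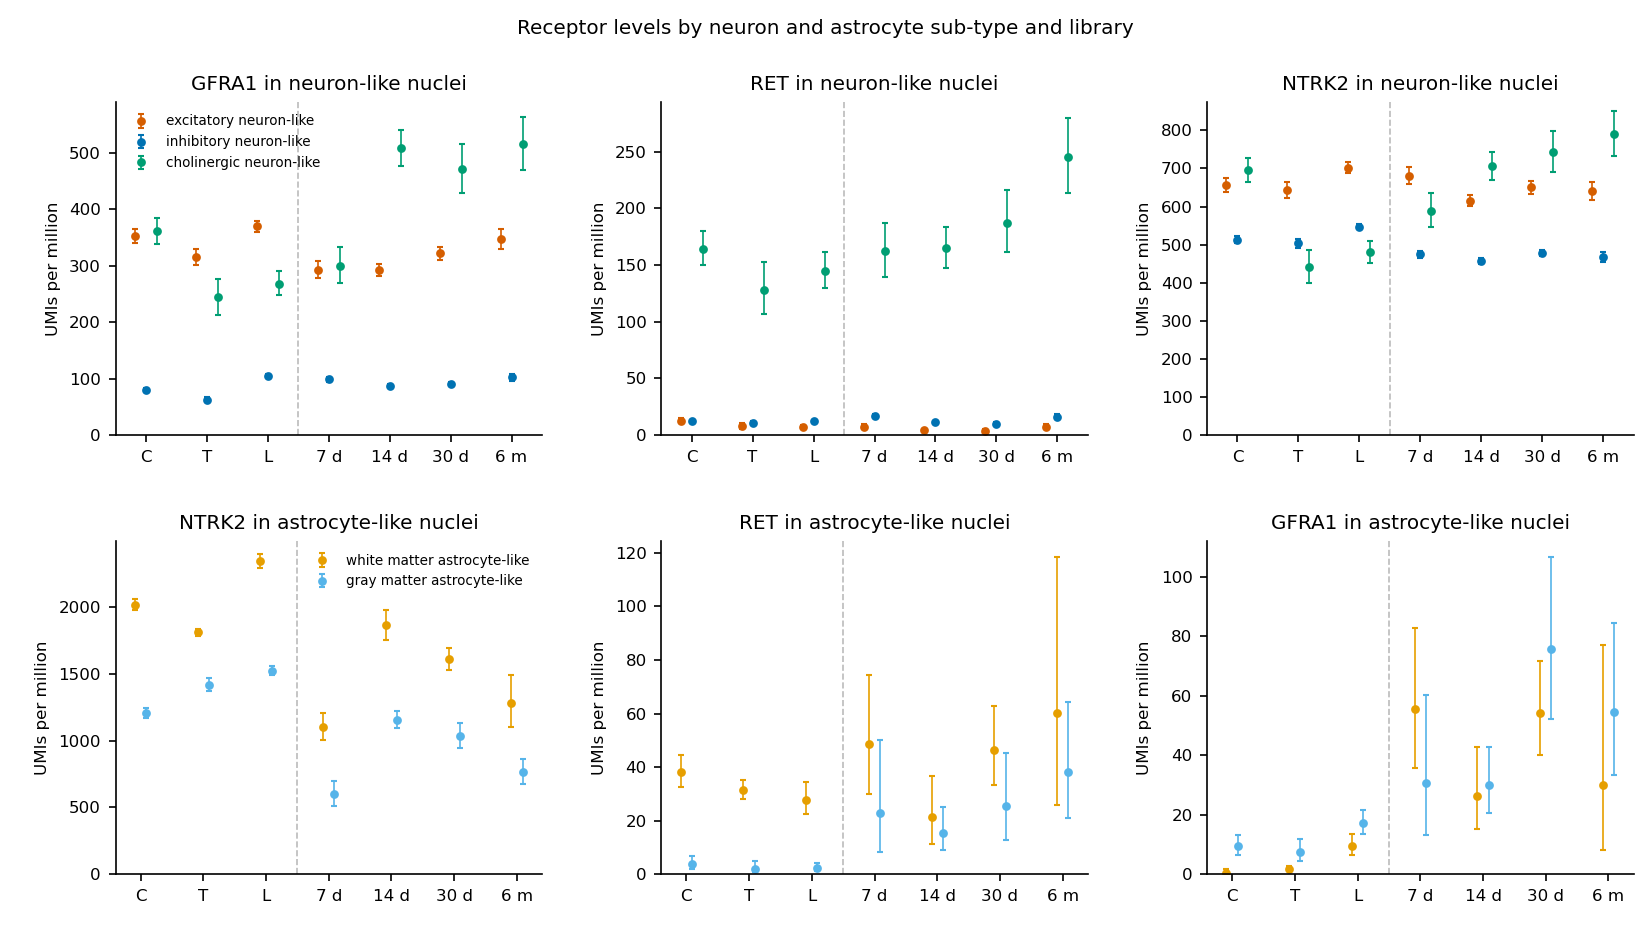
CPM (y axis, linear from 0) of GFRA1, RET and NTRK2 in excitatory, inhibitory and cholinergic neuron-like nuclei (upper row) and of NTRK2, RET and GFRA1 in white matter and gray matter astrocyte-like nuclei (lower row) in each library, with exact Poisson 95% intervals; injured libraries are right of the dashed line. RET stands out in cholinergic neuron-like nuclei (6 to 25 nuclei per library), and NTRK2 is higher in white matter than in gray matter astrocyte-like nuclei in all 7 libraries.

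Among the 31 neuron sub-clusters of at least 100 nuclei, GFRA1 ran from 1.43 CPM to 1076 CPM (1036 to 1117) in sub-cluster 27, an excitatory-like one led by BNC2 and EBF2, genes of transcription factors, PDE11A, CDH9 and NPFFR2. The same sub-cluster had the highest level of NTF3, at 29.4 CPM (23.2 to 36.9) against a median of 0.927 CPM over the sub-clusters. Sub-cluster 0 was inhibitory-like and led by FOXP2, SAMD5, ASAH2, KANK4 and ITPR2. Of these 31, pooled over libraries, it was highest for both GDNF and RET, at 4.0 CPM (3.57 to 4.46) and 18.2 CPM (17.3 to 19.2). For GDNF sub-cluster 20 came next at 3.86 CPM, within that interval. The smaller cholinergic sub-clusters, outside this ranking, had more RET, as given above. Sub-cluster 0 held 39.8% of the neuronal GDNF UMIs and 26.8% of the neuronal RET UMIs. It was also the largest sub-cluster, with 1364 of 9894 neuron-like nuclei at a median of 50778 UMIs, and these shares are not corrected for that. NTRK2 varied less, from 349 to 832 CPM, the highest in sub-cluster 21, which was excitatory-like and led by the tachykinin gene TAC3, MME, CHST9, FBXL7 and RASGRF2. NTRK3 ran from 18.7 CPM to 976 CPM (953 to 999) in the unnamed sub-cluster 13, whose leading genes included LMO3 and SOX5.

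NGFR gave 242 UMIs in all kept nuclei, in 196 nuclei. In neuron-like nuclei it gave 14, 8 and 36 UMIs in intact and 17, 38, 45 and 30 UMIs in injured libraries, or 0.278, 0.274 and 0.384 CPM against 0.454, 0.618, 0.752 and 1.29 CPM. All 4 injured libraries were above the intact range. The interval of the ratio to intact lumbar cord held 1 in the first and second of them (0.623 to 2.16 and 0.994 to 2.62) and was 1.24 to 3.13 at 30 dpi and 2.0 to 5.61 at 6 mpi. The unnamed sub-cluster 19, led by PIEZO2, EBF2, BNC2, GPC3 and CBLN1, had the highest level of NGFR, 9.24 CPM (6.81 to 12.3), and held 25.5% of its neuronal UMIs. Sub-cluster 29 came next at 8.66 CPM, within that interval, and both values are pooled over libraries. NGFR, like GDNF and NTF3, was below the level required for the call.

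A gene was called higher or lower in a class when each of the 4 injured libraries differed at least 1.5-fold from intact lumbar cord, on the log2(CPM + 1) scale, and lay outside all 3 intact libraries. Genes with a mean of at least 5 CPM and 100 UMIs in the class were considered, which left 17 of the 40 combinations of the 8 genes with 5 classes. Of these, 1 was called higher, GFRA1 in astrocyte-like nuclei, and 1 lower, NTRK2 in microglia/macrophage-like nuclei, whose level beside the markers of other classes is given above. In astrocyte-like nuclei 1 of 4 members considered was called higher and none lower, where 2.86% of 11119 genes were called higher and 0.944% lower. In microglia/macrophage-like nuclei none of 3 was called higher and 1 lower, where 4.72% and 2.61% of 10325 genes were. None was called in neuron-like nuclei, with 5 members considered and 0.32% of all genes called higher and 0.391% lower. The same held for OPC-like nuclei, with 3 members and 1.34% and 0.82% of genes. It also held for oligodendrocyte-like nuclei, with 2 members and 1.67% and 0.967% of genes. With 17 combinations, these counts are too small to set the 8 genes apart from all genes.

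**Figure D4:**
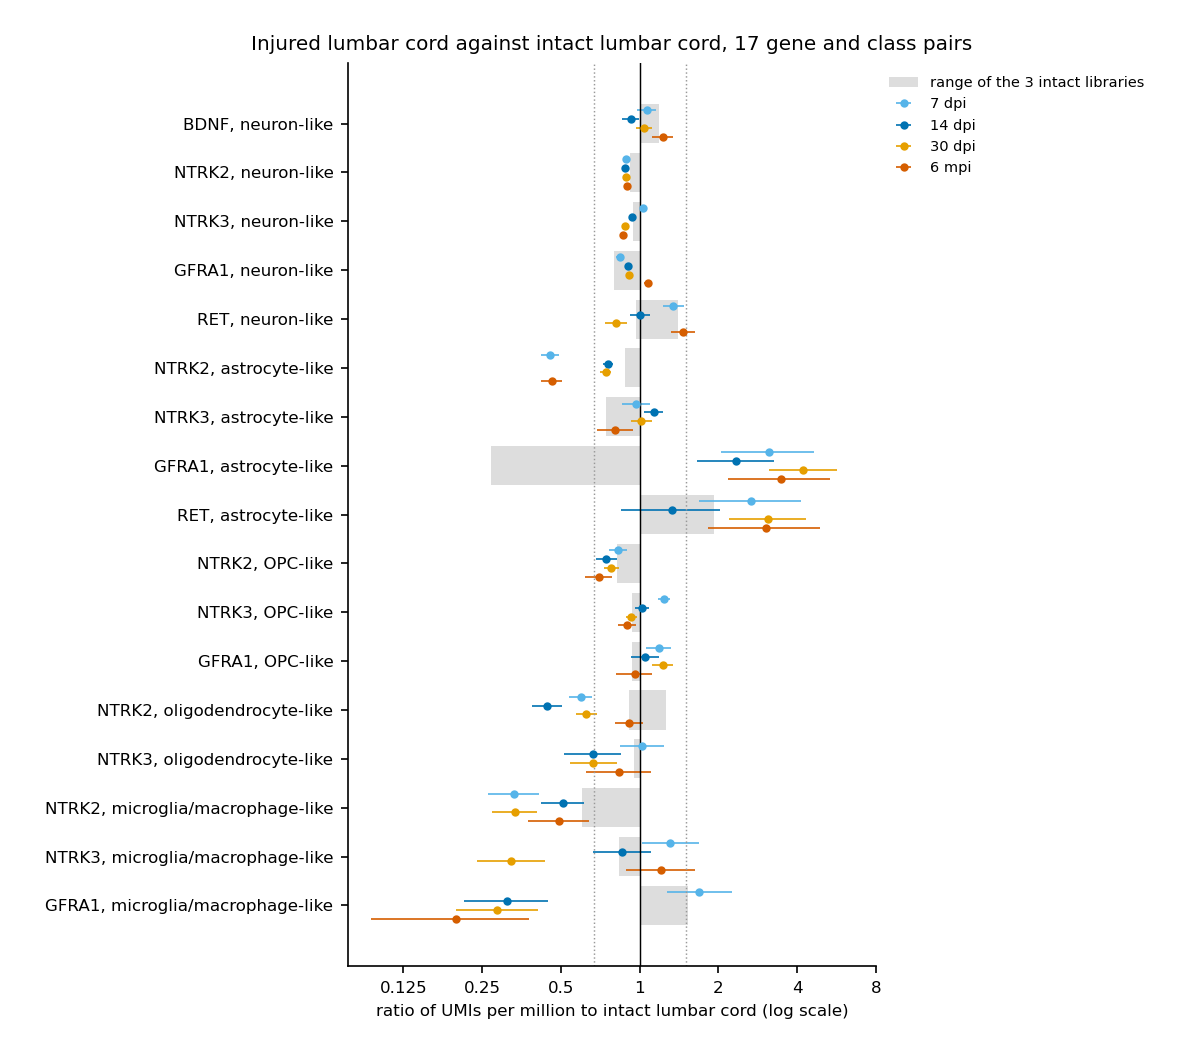
Ratio of the CPM in each injured library to intact lumbar cord (x axis, log scale) for the 17 combinations considered, with exact conditional binomial 95% intervals of counting error. Gray bars span the 3 intact libraries and dotted lines mark 1.5-fold; the 4 points of GFRA1 in astrocyte-like nuclei (2.34 to 4.22) lie right of both.

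The even class level of BDNF in neuron-like nuclei was made up of sub-clusters that differed. Pooled over all 7 libraries, BDNF was highest in the unnamed sub-cluster 25, led by CDH9, TAFA1, ADAMTS2, PDE1A and BDNF itself, at 100.4 CPM (92.1 to 109), and next in sub-cluster 18, at 97.2 CPM, within that interval and from unlike intact and injured values, against a median of 13.5 CPM over sub-clusters. Levels by library are not given for sub-cluster 25 or the other sub-clusters, whichever way they went. Sub-cluster 18 was described further after its values had been seen. It held 235 excitatory-like nuclei led by CDH23, a cadherin gene, ANTXR2, the estrogen receptor gene ESR1 and the opioid peptide genes PDYN and PENK, and 7 of its 10 leading genes were over 3 times higher in another class. In intact libraries 11 of 25, 3 of 13 and 26 of 89 of its nuclei had a BDNF UMI, and in injured libraries 18 of 29, 18 of 34, 18 of 22 and 18 of 23 did. These counts are not thinned. Median depths of these nuclei were 41639, 32862 and 27384 UMIs in intact and 29948, 31256.5, 58507.5 and 33929 UMIs in injured libraries.

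BDNF in sub-cluster 18 gave 32, 6 and 64 UMIs in the intact libraries and 141, 149, 324 and 171 UMIs in the injured ones. This is 27.7, 11.7 and 20.4 CPM against 154, 120, 236 and 219 CPM, and the groups did not overlap. The ratios to intact lumbar cord were 7.58 (5.60 to 10.3), 5.87 (4.35 to 7.99), 11.6 (8.82 to 15.4) and 10.7 (8.02 to 14.6). Sub-cluster 18 was picked as the excitatory-like one with the highest BDNF level pooled over all libraries, which the injured values raised. The ratios and the lack of overlap rest on these same values, so they are no support for a difference. Their intervals take no account of the choice. The nuclei with the most UMIs held 32, 34, 70 and 34, and without them the injured libraries gave 119, 92.3, 185 and 175 CPM. The vesicular glutamate transporter gene SLC17A6 gave 113 to 166 CPM in intact and 146 to 191 CPM in injured nuclei of the sub-cluster. SLC17A8, another excitatory marker, gave at most 4.33 CPM in any library. The inhibitory marker GAD1 gave 5.20 to 13.6 CPM in intact and 0 to 17.7 CPM in injured nuclei. GAD2 and SLC6A5, also inhibitory markers, gave at most 7.64 and 3.89 CPM. The leading genes of the sub-cluster were not even over the libraries. CDH23 gave 215, 181 and 197 CPM in intact and 189, 233, 109 and 92.2 CPM in injured nuclei, with the last 2 below the intact range. ESR1 gave 184, 163 and 258 CPM in intact and 187, 53.0, 238 and 90.9 CPM in injured nuclei, below the intact range at 14 dpi and 6 mpi. PDYN gave 111, 68.0 and 161 CPM against 311, 73.0, 119 and 74.3 CPM, above the intact range at 7 dpi and within it in the others. ANTXR2 gave 129, 120.5 and 113 CPM in intact and 355, 179.8, 266 and 123 CPM in injured nuclei, and PENK gave 118, 83.6 and 172 CPM against 457, 229, 286 and 128 CPM. Both were above the intact range in the first 3 injured libraries and within it at 6 mpi, while BDNF was above it in all 4. The sub-cluster made up 1.65% to 3.14% of neuron-like nuclei in intact and 1.72% to 2.70% in injured libraries. It held 2.63%, 0.904% and 3.35% of the neuronal BDNF UMIs in intact and 17.4%, 12.9%, 25.7% and 29.5% in injured libraries.

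Outside sub-cluster 18, neuron-like nuclei gave 24.1, 23.0 and 20.4 CPM of BDNF in intact and 18.3, 16.8, 16.1 and 18.2 CPM in injured libraries. These 4 values lay below the intact range, but sub-cluster 18 was chosen for its high values after injury, so its removal by itself lowers them. Whether BDNF also differed in other sub-clusters was not tested. Excitatory neuron-like nuclei as a whole gave 26.1, 21.7 and 22.2 CPM in intact and 44.5, 37.3, 52.5 and 54.4 CPM in injured libraries. Without sub-cluster 18 they gave 25.9, 22.7 and 22.7 CPM against 21.4, 26.8, 21.0 and 20.9 CPM, where the same limit on its removal holds. With the sub-clusters left unnamed added to their best-scoring group, excitatory nuclei gave 43.1, 36.9 and 37.8 CPM against 42.7, 35.1, 43.0 and 56.4 CPM, and the ranges overlapped. The added sub-clusters, among them sub-cluster 25, raised the level in each intact library and at 6 mpi and lowered it at 7, 14 and 30 dpi. Each injured library had fewer than 50 nuclei of sub-cluster 18, all from 1 animal.

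**Figure D5:**
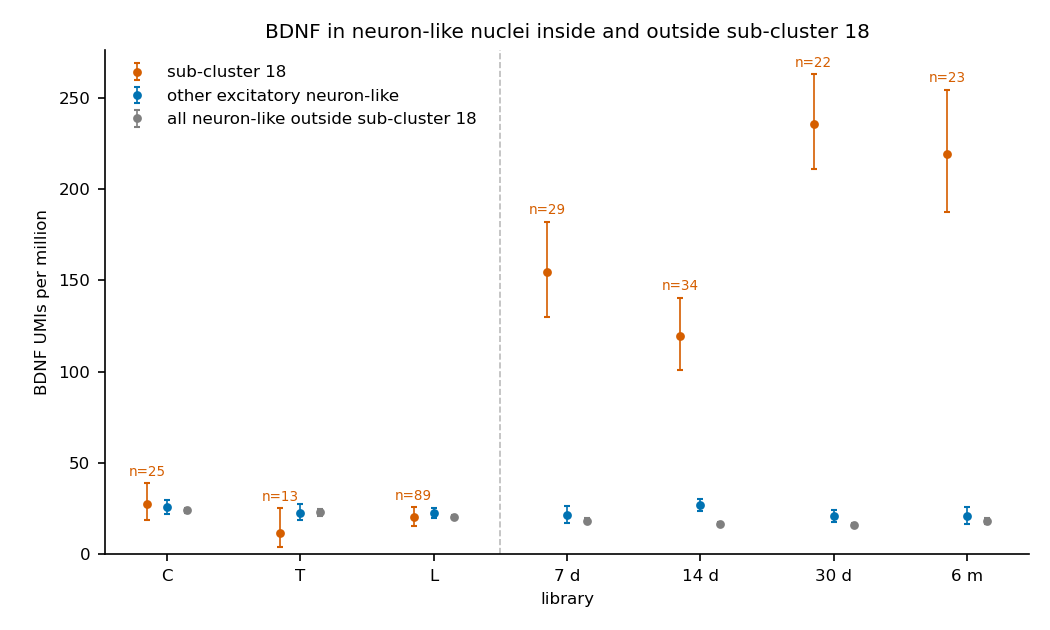
BDNF CPM (y axis, linear) in neuron sub-cluster 18, in the other excitatory neuron-like nuclei and in all neuron-like nuclei outside sub-cluster 18, by library, with exact Poisson 95% intervals and the number of nuclei of sub-cluster 18. Sub-cluster 18 gives 11.7 to 27.7 CPM in intact and 120 to 236 CPM in injured libraries, right of the dashed line. It was picked by its BDNF level pooled over these same libraries.

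Of 40 other genes of these pathways, chosen by role, 39 were found. The ligands NTF4, NRTN, ARTN and PSPN were low throughout, and none of them reached the level for a call in any of the 5 classes. Among the 10 receptors and co-receptors, NCAM1, the neural cell adhesion molecule, averaged 822 CPM in neuron-like, 916 in astrocyte-like, 1286 in OPC-like and 1709 in oligodendrocyte-like nuclei. SORT1, the sortilin receptor of proneurotrophins, averaged 689 CPM in oligodendrocyte-like, 284 in microglia/macrophage-like and 148 in astrocyte-like nuclei. Its relative SORCS1 averaged 371 CPM in neuron-like, 127 in astrocyte-like and 595 in OPC-like nuclei. SORCS3 averaged 348, 155 and 491 CPM in the same classes, and SORCS2 213 CPM in astrocyte-like nuclei.

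Several adaptors that carry the signal of these receptors were spread over all classes. GAB2 had its highest mean in microglia/macrophage-like nuclei, 2558 CPM, with 747 in oligodendrocyte-like, 430 in astrocyte-like, 416 in OPC-like and 170 in neuron-like nuclei. GAB1 averaged 1324 CPM in oligodendrocyte-like, 282 in OPC-like and 171 in both astrocyte-like and microglia/macrophage-like nuclei. KIDINS220, a scaffold protein of Trk receptors, averaged 427 CPM in oligodendrocyte-like nuclei and 104.8 to 216 CPM in the other 4 classes. SOS1 averaged 146 to 287 CPM over the 5 classes, and FRS2 averaged 117 to 197 CPM in all but OPC-like nuclei. Others were high in fewer classes. DOK6 averaged 684 CPM in neuron-like and 412 CPM in OPC-like nuclei, and DOK5 129 CPM in neuron-like nuclei. SHC3 averaged 156 CPM in neuron-like and 512 CPM in OPC-like nuclei, and GRB2 428 CPM in microglia/macrophage-like nuclei. MAGED1, which binds the p75 receptor, averaged 129, 108 and 186 CPM in neuron-like, astrocyte-like and OPC-like nuclei, and RIPK2 106 CPM in astrocyte-like nuclei. Of the proprotein convertases, PCSK5 averaged 165, 723 and 123 CPM in neuron-like, astrocyte-like and OPC-like nuclei and PCSK6 316 CPM in oligodendrocyte-like nuclei.

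In neuron-like nuclei none of the 30 pathway genes considered was called. In astrocyte-like nuclei 2 of 30 were called higher and 1 lower, where 2.86% of all genes considered were called higher and 0.944% lower. The adaptor gene GAB2 gave 292, 344 and 289 CPM in intact and 514, 590, 478 and 503 CPM in injured libraries. The adaptor gene SH2B2 gave 8.50, 8.73 and 9.79 CPM against 49.7, 26.6, 57.2 and 41.0 CPM. Its mean in microglia/macrophage-like nuclei was 49.3 CPM. The 6 microglia markers averaged 3.05 to 17.6 CPM in astrocyte-like and 331 to 1485 CPM in microglia/macrophage-like nuclei. These are means over intact and injured libraries together. PCSK6, a proprotein convertase gene, was lower in astrocyte-like nuclei, with 74.8, 97.6 and 60.1 CPM in intact and 38.2, 21.9, 27.2 and 37.5 CPM in injured libraries.

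GAB2 was also called in OPC-like nuclei, the 1 of 29 genes that was (1.34% of all genes were called higher), at 336, 346 and 296 CPM in intact and 459, 507, 512 and 453 CPM in injured libraries. In oligodendrocyte-like nuclei 1 of 25 was called higher (1.67% of all genes were), SORCS1, at 3.12, 2.27 and 3.21 CPM against 17.7, 8.48, 5.41 and 13.7 CPM, far below its level in OPC-like nuclei. In microglia/macrophage-like nuclei 1 of 23 was called lower (2.61% of all genes were), DOK6, at 14.2, 14.5 and 12.4 CPM against 4.35, 7.51, 2.96 and 7.78 CPM. With 1 to 3 calls in a class, these counts do not set the pathway genes apart from all genes. The part of free RNA and of the change in class makeup in these calls was not tested.

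Over the 35 combinations of 5 classes and 7 libraries, the 3 genes with the closest patterns to each member were sought among 10975 genes by Pearson's r of log2(CPM + 1). NTRK2 was followed by CCDC136 (r = 0.987), KALRN (0.986) and FGF2 (0.979), and NTRK3 by ST8SIA1 (0.992), BRINP3 (0.991) and ABCC8 (0.989). GFRA1 was followed by B3GAT2 (r = 0.94), ATRNL1 (0.934) and ADAM19 (0.931), and RET by STAC2 (0.984), TRPM3 (0.972) and DNAH7 (0.968). Among the ligands, BDNF was followed by METTL21EP (r = 0.961), CEMIP (0.955) and FOCAD (0.943), NTF3 by TACR3, SV2C and VWA5B2 (0.904 to 0.906) and GDNF by CSMD3 (0.946), BMERB1 (0.938) and ARPP21 (0.934). The combinations share libraries and depth, so these values describe likeness only. NGFR had too few UMIs for this search.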

How the data were processed

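The authors homogenised tissue, isolated nuclei and prepared 10x Chromium v3 libraries. Per the labels, Cell Ranger 6.0.0 was used. The deposited values are whole UMI counts per gene and barcode, not normalized, for 35432 identifiers, of which 914 without a symbol were named from a reference table. The study's methods name Mmul_10 as the genome, and gene positions here are from its RefSeq annotation. No barcode had fewer than 500 UMIs, so barcodes had been selected before deposit. The study's doublet calls and cell types were not used here.

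Of 69332 barcodes, 67084 exceeded 500 genes and 1000 UMIs and stayed below 10% mitochondrial and 5% hemoglobin counts. The 5% with the highest Scrublet score per library (scanpy 1.11.5), 3354 nuclei, were removed. Free RNA was not subtracted. From 2000 variable genes without the 8 genes and the pathway genes, 30 components and 20 neighbours per nucleus gave Leiden clusters (leidenalg 0.10.2, resolution 1). Clusters were named by marker scores from at least 3 detected markers. A cluster stayed unnamed where a second class scored over 0.5 of the best with 4 markers detected, or over 0.3 with 5 of 10 leading genes highest there. Sub-clusters stayed unnamed where 9 of 10 leading genes were over 3 times higher in another class. These thresholds were set after clusters had been seen, as the last of 3 versions for classes and of 5 for sub-clusters, and the first version for classes is among the alternatives. Names carry "-like" because no label states a cell type.

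UMIs were summed per class and library and divided by the class total. Levels carry exact Poisson, ratios exact conditional binomial and shares exact Clopper-Pearson intervals, at 95%. Since groups have 1 library, no p-value was computed. On simulated counts with genes changed 3-fold, the call recovered 98% of raised genes in astrocyte-like and 100% in neuron-like nuclei, and 92.05% and 100% of those lowered genes that still passed the filter on low values. The simulated libraries shared the pooled intact profile and had counting error only. How the call fares with differences between libraries or animals, or with changes nearer its 1.5-fold limit, was therefore not tested. The 8 genes, the pathway genes and the markers were chosen with earlier results of these data known. Pathway genes named are those called in a class or with a mean above 100 CPM, and a few items are not reported here. Likeness was computed for members with at least 500 UMIs.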

Additional observations from a re-analysis of the deposited data

How the results depend on the processing

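The number of members called higher was 1 under every alternative except no doublet removal and all deposited barcodes, where it was 0. There GFRA1 in astrocyte-like nuclei still lay above the intact range in all 4 injured libraries, but intact lumbar cord gave 25.0 and 25.7 CPM. The 73 astrocyte-like nuclei of intact lumbar cord removed by doublet score held 114 GFRA1 UMIs, or 102 CPM, and the log2 ratio at 14 dpi was 0.31 and 0.29. The number called lower was 0 with each nucleus named alone, where NTRK2 in microglia/macrophage-like nuclei at 14 dpi lay within the intact range, and 0 with a 2-fold limit, which that gene did not reach at 14 dpi and 6 mpi. It was 2 without the 7 dpi library, which added GFRA1 in microglia/macrophage-like nuclei, and 2 without the 6 mpi library, which added NTRK2 in oligodendrocyte-like nuclei. The settings without a library, the first naming rule, the removal of sub-clusters led by genes of another class and all settings for BDNF were chosen after seeing the data. Of 748 log2 ratios recomputed for single genes, 640 stayed within their counting interval, 108 moved beyond it and 0 of those past 1.5-fold changed sign. With the mean of the 3 intact libraries as reference 33 of 68 moved, and the log2 ratios of GFRA1 in astrocyte-like nuclei were 2.36, 1.96, 2.79 and 2.51 in place of 1.57, 1.17, 2.0 and 1.72. At a sub-cluster resolution of 2, a sub-cluster of 232 nuclei held 98.7% of sub-cluster 18 and no other nuclei. BDNF gave 11.7 to 27.0 CPM there in intact and 120 to 236 CPM in injured libraries. These are nearly the same nuclei, so the like values are no separate check of the BDNF level. No paired analysis was possible because each group has 1 library. Depth limits NGFR, NTF3 and GDNF, and the astrocyte-like values at 7 dpi and 6 mpi rest on 96 and 109 nuclei.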
